A study of Mus musculus with 4 samples.

Results

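The stellate cell and proteoglycan genes described here are 10 genes of liver mesenchyme and its matrix: Acta2, Des, Pdgfra, Pdgfrb, Reln, Hand2, Dcn, Lum, Bgn and Sparc. They were taken by symbol from a deposited table of 24138 rows, and all 10 were found, each in a single row. The samples came from 4 male mice of strain C57BL/6J, each 18 weeks old, all on the FAT-MASH diet, which is used to produce metabolic dysfunction-associated steatohepatitis, and all treated with resolvin D1 (RvD1), a lipid mediator formed from docosahexaenoic acid. RNA of whole liver was sequenced after poly(A) enrichment. All samples belong to 1 group and are called livers 1 to 4, as numbered in the labels. No livers without the diet or without RvD1 were analysed here, so the values give levels and their spread between animals and say nothing of an effect of either.

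Hepatic stellate cells lie between hepatocytes and the sinusoidal endothelium, where they store retinoid. In liver injury they can become myofibroblasts, which contract and deposit collagen and proteoglycans, and signalling by platelet-derived growth factor (PDGF) drives their division and migration. Small leucine-rich proteoglycans such as decorin, lumican and biglycan are secreted proteins that bind collagen fibrils, and several of them also bind growth factors. Few of the 10 genes belong to stellate cells alone: Acta2 and Des are also made by vascular smooth muscle, Dcn and Lum by portal fibroblasts and Sparc by endothelium.

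Promoter sequences were available for 7 of the 10 genes, Acta2, Des, Pdgfra, Reln, Hand2, Bgn and Sparc, from RefSeq on GRCm38.p6. The windows of 4 are printed because these genes mark the range of behaviour described below: Bgn and Hand2 were highest in liver 2 and lowest in liver 4 with most of the group, Acta2 hardly varied, and Reln departed from the rest. Each window is the 250 bases before the RefSeq start, written 5′ to 3′ on the strand of the gene. The deposited span of Bgn begins 34 bases after the RefSeq start. Capitals mark GC boxes (GGGCGG on either strand) in Bgn, Hand2 and Reln, and in Acta2 they mark CArG-like elements, that is, CArG boxes with at most 1 G or C allowed in the A/T core.
Bgn, chrX:73483351-73483600, plus strand: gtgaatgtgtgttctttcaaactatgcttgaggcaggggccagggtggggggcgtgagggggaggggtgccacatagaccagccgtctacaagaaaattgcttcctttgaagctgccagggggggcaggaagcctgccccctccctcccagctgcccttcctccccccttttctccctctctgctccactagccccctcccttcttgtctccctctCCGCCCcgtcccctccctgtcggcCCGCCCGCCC
Hand2, chr8:57320733-57320982, plus strand: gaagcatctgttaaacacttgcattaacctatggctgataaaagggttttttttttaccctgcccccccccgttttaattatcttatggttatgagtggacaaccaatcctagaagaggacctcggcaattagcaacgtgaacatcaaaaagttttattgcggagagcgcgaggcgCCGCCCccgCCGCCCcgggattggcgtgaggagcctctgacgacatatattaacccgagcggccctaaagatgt
Reln, chr5:22344706-22344955, minus strand: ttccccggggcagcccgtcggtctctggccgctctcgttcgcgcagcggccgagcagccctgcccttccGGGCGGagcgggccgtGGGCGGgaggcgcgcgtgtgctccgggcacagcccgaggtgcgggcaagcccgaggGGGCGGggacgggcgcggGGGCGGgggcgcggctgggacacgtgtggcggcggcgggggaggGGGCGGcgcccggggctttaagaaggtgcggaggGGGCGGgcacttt
Acta2, chr19:34255374-34255623, minus strand: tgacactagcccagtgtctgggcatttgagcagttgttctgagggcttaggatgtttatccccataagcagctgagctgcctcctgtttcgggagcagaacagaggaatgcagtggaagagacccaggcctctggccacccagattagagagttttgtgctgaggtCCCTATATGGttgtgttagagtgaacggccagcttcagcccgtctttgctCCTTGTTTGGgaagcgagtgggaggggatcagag

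The Reln window was 80.0% G or C, against a median of 52.4% over all 32851 windows of this length, and held 6 GC boxes. Bgn held 3, of which the last 2 overlap, and its window was 64.4% G or C. Hand2 and Des held 2 GC boxes each, and Acta2, Pdgfra and Sparc held 0. A GC box was present in 32.7% of all windows.

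In the Acta2 window the 2 CArG-like elements lay 84 to 75 and 34 to 25 bases before the start. The CArG box is the element bound by serum response factor in many contractile genes. A CArG-like element occurred in 8.59% of all windows and a strict CArG box in 1.47%, and none of the 7 windows held the strict form. An E box (CANNTG) was present in 7 of 7 windows and in 66.2% of all. Neither TATAAA, found in 12.4% of all windows, nor the AP-1 element TGANTCA, found in 6.75%, was in any of the 7. These are matches of letters in a short window, and no measurement of factor binding was made.

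The 10 genes covered a wide range of levels. In FPKM, fragments mapped to a transcript scaled by its length and by the size of the library, their means ran from 1.74 for Acta2 to 148 for Dcn. The libraries held about 18.8 to 20.1 M fragments (M, mega), an estimate since the table holds no counts. All 10 reached the mean of 1 FPKM used here to call a gene expressed, as did 10541 genes of the table. Their summed level was 353, 434, 324 and 317 FPKM in livers 1 to 4, or 0.0673%, 0.0831%, 0.0626% and 0.0556% of all FPKM in the library. The proteoglycan genes Dcn, Bgn and Lum made up 79.1% of the 10 genes' summed mean level, with Dcn alone at 41.5% and Bgn at 31.3%.

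**Figure D1:**
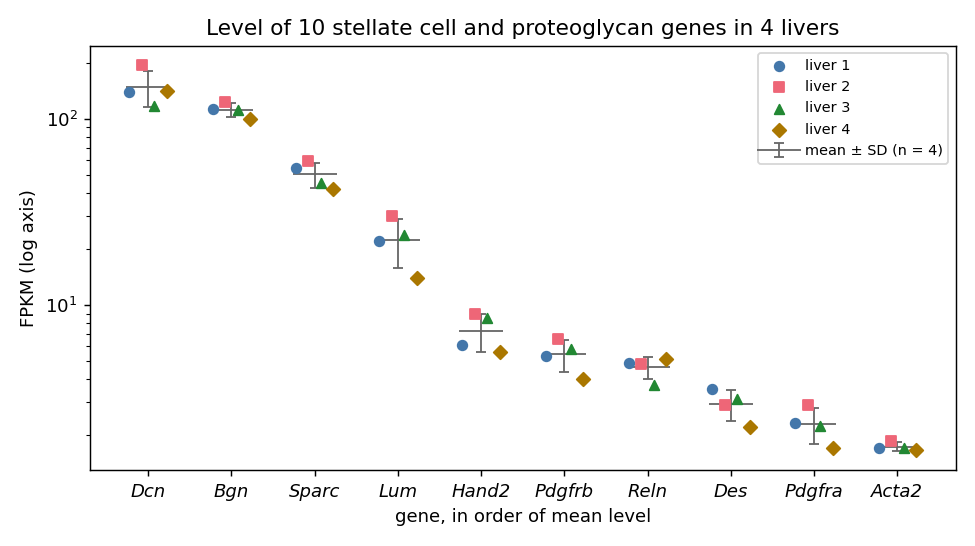
FPKM of each of the 10 genes in each of the 4 livers on a log axis, with the mean and SD (n = 4) in grey. The levels run from 1.66 FPKM (Acta2, liver 4) to 194 FPKM (Dcn, liver 2), and for most genes the liver 2 square is the uppermost and the liver 4 diamond the lowest.

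In order of mean level the genes were Dcn, Bgn, Sparc, Lum, Hand2, Pdgfrb, Reln, Des, Pdgfra and Acta2. The ranges over the livers did not overlap between Bgn and Sparc, Sparc and Lum, Lum and Hand2, or Reln and Des. For the other 5 neighbouring pairs the ranges overlapped. Within each liver, however, Dcn was above Bgn, Hand2 above Pdgfrb and Pdgfra above Acta2 in 4 of 4 livers, whereas Pdgfrb exceeded Reln, and Des exceeded Pdgfra, in 3 of 4.

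The contractile and cytoskeletal markers were among the lowest of the group. Acta2 (XLOC_010883, chr19:34240336-34255373 in the deposited coordinates), which encodes the smooth muscle alpha-actin by which myofibroblasts are usually recognised, had 1.71, 1.87, 1.71 and 1.66 FPKM in livers 1 to 4. The 4 values lay close together, with liver 2 a little above the rest. The mean was 1.74 ± 0.0908 FPKM (SD, n = 4), a coefficient of variation (CV) of 5.23%.

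On the log2(FPKM + 1) scale the SD of Acta2 over the livers was 0.05, at percentile 2.62 of all expressed genes. At the approximate depth of the libraries its values rest on about 57.2 to 66.2 fragments per liver, and counting error alone would give a CV of about 12.7%. The measured CV was below that, so differences in Acta2 between these livers were not detectable at this depth.

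Des (XLOC_000213, chr1:75360292-75375015), the gene of the intermediate filament desmin, had 3.55, 2.90, 3.11 and 2.22 FPKM. Liver 1 was highest and liver 4 lowest, which sets it apart from the members that peaked in liver 2. Its mean was 2.95 ± 0.554 FPKM (SD, n = 4) with a CV of 18.8%, against a counting error of about 7.84%. An antisense gene, Gm15179, overlaps Des and is listed at 0 in all 4 livers over the same span. Whether the counting used strand is not given in the sources used here. The ratio of Acta2 to Des was 0.481, 0.643, 0.551 and 0.746, with liver 4 highest, and its mean was 0.605 ± 0.115 (SD, n = 4). This ratio carries the counting errors of both genes, about 12.7% for Acta2 and 7.84% for Des, so its order of livers is uncertain.

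Both PDGF receptor genes were expressed at a few FPKM and had the same extreme livers. Pdgfrb (XLOC_009899), the receptor for the PDGF-B chain and a standard marker of stellate cells and pericytes, had 5.35, 6.54, 5.80 and 3.99 FPKM, a mean of 5.42 ± 1.07 (SD, n = 4). Pdgfra (XLOC_015888, chr5:75152291-75198204), which also binds the A and C chains, had 2.32, 2.91, 2.25 and 1.70 FPKM, a mean of 2.30 ± 0.494 (SD, n = 4). For each receptor liver 2 was highest and liver 4 lowest.

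Liver 2 exceeded liver 4 by 1.64-fold for Pdgfrb and 1.71-fold for Pdgfra. The ratio of Pdgfrb to Pdgfra within a liver, which does not depend on how the libraries were scaled, was 2.31, 2.25, 2.57 and 2.34. Its mean was 2.37 ± 0.143 (SD, n = 4), the narrowest relative spread of the 5 ratios computed. The ratio of Des to Pdgfrb ranged from 0.443 in liver 2 to 0.663 in liver 1, with a mean of 0.550 ± 0.0899 (SD, n = 4).

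Gene lists of related pathways were counted by highest and lowest liver. Their counts are to be read against all expressed genes. Of those, 22% were highest in liver 2, 18.1% lowest in liver 4 and 39.8% higher in liver 2 than in liver 4. With every library scaled to the same sum (equal sums), 28.4% were highest in liver 2 and 33.0% lowest in liver 4. All 4 genes of PDGF ligands were expressed, 1 of the 4 highest in liver 2, near the 22% as deposited, and 2 lowest in liver 4. Pdgfa had 9.01, 7.09, 7.34 and 9.13 FPKM, lowest in liver 2. Pdgfc had 1.67, 1.92, 1.89 and 1.55 FPKM, the same order of livers as Pdgfrb. The mean of Pdgfc was 1.76 ± 0.180 FPKM and that of Pdgfd 1.50 ± 0.565 FPKM (each SD, n = 4). Of 12 signalling genes downstream of the receptors, all 12 were expressed, 1 was highest in liver 2 and 3 were lowest in liver 4, or 7 with equal sums. The 3 most abundant of them were the transcription factor gene Stat3 at 20.8 ± 0.593 FPKM and the adaptor genes Shc1 at 19.4 ± 2.07 and Grb2 at 12.7 ± 0.401 (each SD, n = 4). The median SD of the 12 signalling genes was 0.08 on the log2 scale.

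Reln and Hand2 mark the stellate lineage in different ways, and their values ran in different directions. Reln (XLOC_016383, chr5:21884454-22344705), which encodes the large secreted glycoprotein reelin, had 4.87, 4.82, 3.72 and 5.10 FPKM. Livers 1, 2 and 4 were close together and liver 3 stood below them. The mean was 4.63 ± 0.617 FPKM (SD, n = 4), and as deposited Reln was the only one of the 10 genes highest in liver 4. With every library scaled to the same sum its highest liver was liver 1, and liver 3 was its lowest either way.

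The gap between liver 3 and the next liver made up 0.818 of the range of Reln on the log2 scale. This was just under Dixon's 95% critical value for 4 samples, which 0 of the 10 genes passed and 5.46% of expressed genes did. Under other scalings of the libraries Reln did pass, with 0.850 after scaling each library to the same sum and 0.914 after median-ratio scaling. An antisense gene, Gm10475, overlaps an exon of Reln in the annotation.

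The known receptors of reelin were low in these livers. Vldlr had 0.228 ± 0.0605 FPKM, Lrp8 0.0402 ± 0.0270 and the adaptor gene Dab1 0.188 ± 0.101 (each SD, n = 4). These 3 were named after their values were seen. Of the 7 receptor and adaptor genes listed, 3 were expressed, namely Pafah1b1 at 15.4 ± 1.50 FPKM, Dab2 at 4.67 ± 0.941 and Fyn at 2.99 ± 0.463 (each SD, n = 4).

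Hand2 (XLOC_020692, chr8:57320983-57324517), a transcription factor gene of the stellate lineage, had 6.07, 8.93, 8.51 and 5.61 FPKM. Livers 2 and 3 were high and livers 1 and 4 low, with no value in between. The mean was 7.28 ± 1.68 FPKM (SD, n = 4) and the CV 23.1%, against a counting error of about 5.73%. An antisense gene, Hand2os1, overlaps Hand2 in the annotation. The deposited row that ends 123 bases before Hand2, LOC102636514, had 0.447, 2.53, 0.844 and 0.342 FPKM, with liver 2 highest and liver 4 lowest. That row was singled out after its values were seen.

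Of 9 other transcription factor genes of the lineage, 6 were expressed. Of these 6, 5 were highest in liver 2, where 22% of all expressed genes were, and 2 were lowest in liver 4. Tcf21, a marker of quiescent stellate cells, had 12.2, 14.9, 14.5 and 12.2 FPKM, the same split of livers 2 and 3 from livers 1 and 4 as Hand2. Nr2f2 averaged 12.2 ± 0.865 FPKM and Gata4 6.33 ± 1.66 FPKM (each SD, n = 4). Gata4 was highest in liver 3.

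Among the proteoglycans, Dcn (XLOC_001747, chr10:97479500-97518162), the gene of decorin, had 139.8, 194, 117 and 141 FPKM. Liver 2 stood above the rest and liver 3 was lowest, with livers 1 and 4 nearly equal. The mean was 148 ± 32.4 FPKM (SD, n = 4), at percentile 94.7 of the means of all expressed genes.

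Bgn (XLOC_023226, chrX:73483635-73495936), the gene of biglycan, was nearly as abundant and much steadier, with 113, 123, 112 and 99.7 FPKM. Its mean was 112 ± 9.52 FPKM (SD, n = 4), and its SD on the log2 scale was 0.12, at percentile 30.4 of expressed genes. Liver 2 was highest and liver 4 lowest. The CV of Bgn was 8.51%, against a counting error of about 1.44% at 4169 to 5275 fragments per liver.

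Lum (XLOC_001748, chr10:97565501-97572703), the gene of lumican, had 22.0, 29.9, 23.6 and 14.0 FPKM, with liver 2 high and liver 4 low. Its highest value was 2.13 times its lowest, the widest range of the 10 genes, and its SD of 0.43 on the log2 scale stood at percentile 97.4. The mean was 22.4 ± 6.53 FPKM (SD, n = 4).

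Dcn and Lum lie next to each other on chromosome 10, with 47338 bases between the deposited spans, and they did not keep a fixed proportion. The ratio of Dcn to Lum was 6.35, 6.48, 4.97 and 10.1 in livers 1 to 4, a mean of 6.97 ± 2.18 (SD, n = 4). Liver 4 had the most Dcn per Lum and liver 3 the least. The ratio of Dcn to Bgn was 1.24, 1.58, 1.05 and 1.42, a mean of 1.32 ± 0.228 (SD, n = 4).

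The rest of the small leucine-rich family was sparser. Of 14 other members of it, 5 were expressed, and Kera and Epyc, the genes of keratocan and epiphycan, were listed at 0 in all 4 livers. Of the 5 expressed, 0 were highest in liver 2 and 3 were lowest in liver 4. Tsku, which encodes the secreted protein tsukushi, had 46.4, 43.2, 127 and 87.4 FPKM, so livers 3 and 4 were high, unlike Dcn, Lum and Bgn. Prelp had 26.1, 25.6, 26.8 and 20.2 FPKM, with liver 4 below the others, and Omd averaged 5.81 ± 0.305 FPKM (SD, n = 4).

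Among 18 other proteoglycan genes, 10 were expressed, with 3 highest in liver 2 and 3 lowest in liver 4, beside 22% and 18.1% of all expressed genes. With equal sums both counts were 5, beside 28.4% and 33.0% of all expressed genes. The cell-surface syndecans led, with Sdc4 at 131 ± 13.0 FPKM, Sdc2 at 49.3 ± 7.79 and Sdc1 at 45.0 ± 4.63 (each SD, n = 4). Acan, Bcan and Ncan, core proteins of cartilage and brain, and Gpc5 were listed at 0 in all 4 livers. Of 17 genes for enzymes that build or modify glycosaminoglycan chains, 11 were expressed, 5 of them highest in liver 2 and 6 lowest in liver 4. The most abundant were B3gat3 at 15.8 ± 0.697 FPKM, Fam20b at 6.03 ± 0.817 and Xylt2 at 5.97 ± 0.394 (each SD, n = 4), which act on the linker that joins the chain to its core protein.

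Sparc (XLOC_003573, chr11:55394159-55420080), the gene of a matricellular protein that binds collagen, had 54.7, 59.0, 45.5 and 41.9 FPKM. Livers 1 and 2 were the higher pair and livers 3 and 4 the lower. The mean was 50.3 ± 7.93 FPKM (SD, n = 4) and the CV 15.8%, against a counting error of about 2.21%. Of 9 other genes of the SPARC family, 4 were expressed, 3 of them highest in liver 2 and 2 lowest in liver 4, and 4 of 4 were higher in liver 2 than in liver 4. The shares of all expressed genes were 22%, 18.1% and 39.8%. Smoc1 averaged 33.7 ± 2.95 FPKM, Sparcl1 11.0 ± 2.65 and Smoc2 6.87 ± 1.51 (each SD, n = 4). Spock1 and Fstl5 were listed at 0 in all 4 livers.

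Across the 10 genes the same livers recurred at the extremes. Liver 2 was highest for 8 of 10, the exceptions being Des (liver 1) and Reln (liver 4 as deposited). Of all expressed genes, 22% were highest in liver 2 as deposited and 28.4% with equal sums. Liver 4 was lowest for 8 of 10, the exceptions being Dcn and Reln (liver 3), against 18.1% of expressed genes as deposited and 33.0% with equal sums. Both held together for 7 of 10, against 5.69% as deposited. These counts include Acta2, whose differences between livers were within counting error; without it, a count added after seeing the data, they were 7, 7 and 6 of 9. Livers 2 and 4 were singled out after the values were seen, the genes are not independent of each other, and no test was made of these counts.

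Liver 2 was above liver 4 for 9 of 10 genes, against 39.8% of expressed genes. With every library scaled to the same sum, the counts were 10 of 10 and 58.7%. The ratio of liver 2 to liver 4 was 2.13 for Lum, 1.71 for Pdgfra, 1.64 for Pdgfrb and 1.59 for Hand2. It was 1.41 for Sparc, 1.37 for Dcn, 1.31 for Des, 1.23 for Bgn, 1.13 for Acta2 and 0.945 for Reln. The median ratio of the 10 genes was 1.39, and that of 10525 expressed genes above 0 in every liver was 0.952.

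**Figure D2:**
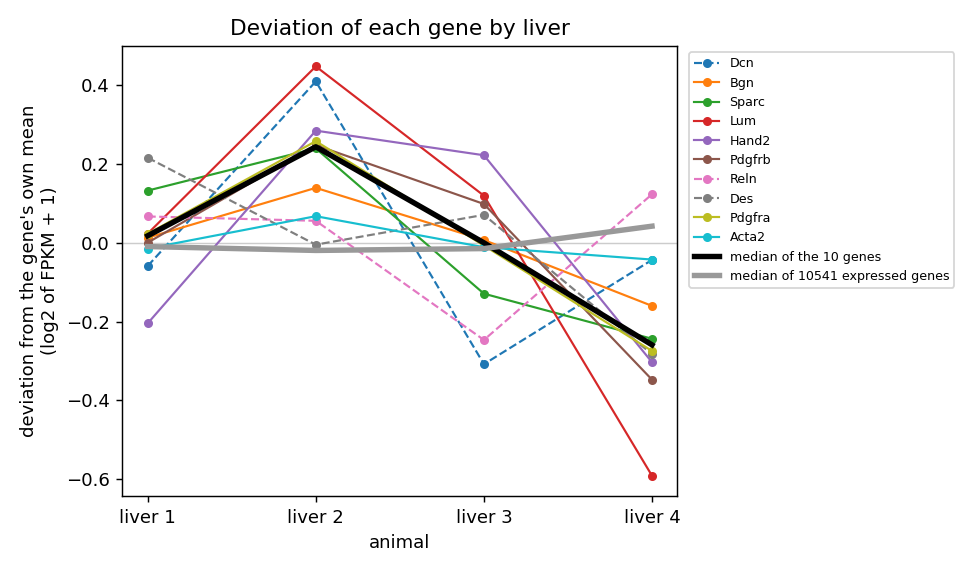
Deviation of each of the 10 genes from its own mean in each liver, on the log2(FPKM + 1) scale, with the median of the 10 genes in black and the median of the 10541 expressed genes in grey. The black line reaches 0.24 in liver 2 and -0.26 in liver 4 while the grey line stays within 0.04 of 0; dashed lines are Dcn, Reln and Des, the genes with another highest or lowest liver.

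The median deviation of the 10 genes from their own means was 0.02, 0.24, 0.00 and -0.26 in livers 1 to 4 on the log2(FPKM + 1) scale. Over all expressed genes it was -0.01, -0.02, -0.01 and 0.04. The numbers of the 10 genes above their own mean were 7, 9, 5 and 1, against 47.2%, 45.1%, 47.0% and 60.8% of expressed genes. Because each gene was centred on its own mean, a high liver 2 and a low liver 4 are not separate results. Without liver 4 the median deviation in liver 2 was 0.15.

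The spread of the genes between animals was also above that of most genes. The median SD of log2(FPKM + 1) was 0.22 for the 10 genes and 0.16 for the expressed genes, and 8 of 10 lay above the latter, Bgn and Acta2 being below. By percentile of SD the order was Lum at 97.4, Dcn at 89.8, Hand2 at 89.5, Pdgfrb at 82.5, Sparc at 74.9, Pdgfra at 72.9, Des at 70.1, Reln at 52.6, Bgn at 30.4 and Acta2 at 2.62. Leaving out liver 4 brought the median of the 10 genes to 0.16, beside 0.15 for the expressed genes. A pseudocount of 5 in place of 1 brought the 2 medians to 0.14 and 0.11.

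**Figure D3:**
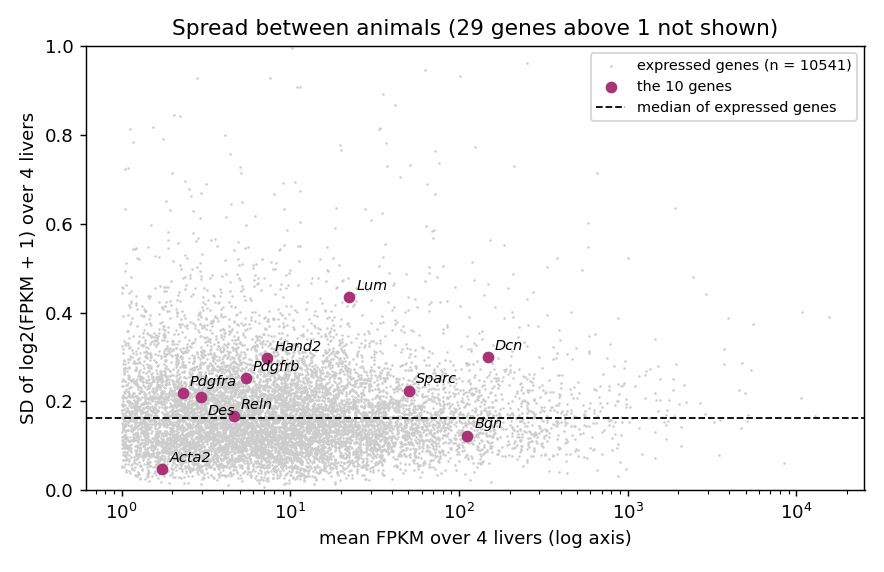
SD of log2(FPKM + 1) over the 4 livers against mean FPKM (log axis) for 10541 expressed genes in grey and the 10 genes in colour, with the median of expressed genes, 0.16, as a dashed line; 29 genes with an SD above 1 lie outside the plot. Lum at 0.43 lies near the upper edge of the cloud and Acta2 at 0.05 near the lower edge.

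For 9 of the 10 genes the measured CV was above the approximate counting error, the exception being Acta2. The CVs were 29.2% for Lum, 21.9% for Dcn and 19.8% for Pdgfrb, against counting errors of about 3.19%, 1.49% and 4.26%. For Pdgfra they were 21.5% and 5.80%, and for Reln 13.3% and 3.11%. Counting error is only a lower limit, since library preparation adds spread of its own.

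**Figure D4:**
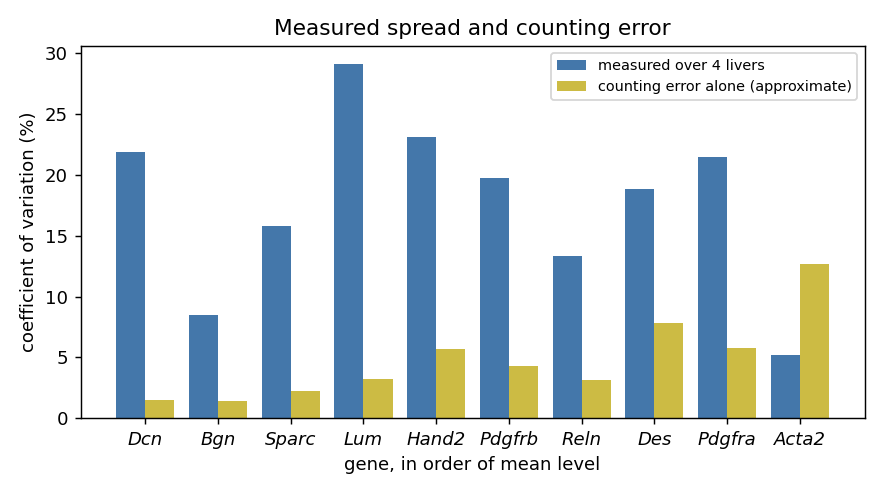
Coefficient of variation over the 4 livers (blue) and the value that counting error alone would give at the approximate number of fragments per gene (yellow), in percent, for the 10 genes in order of mean level. The blue bar is above the yellow bar for every gene but Acta2, where the values are 5.23% and 12.7%.

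Marker lists of liver cell types were examined in the same whole-liver RNA. Of 15 quiescent stellate cell markers, 13 were expressed and 0 were listed at 0 in all livers; they included Ecm1 at 39.8 ± 0.736 FPKM, Colec11 at 28.2 ± 5.12 and Cygb at 17.2 ± 2.65 (each SD, n = 4). Lrat, the retinol esterifying enzyme that defines retinoid-storing stellate cells, had 4.91, 4.18, 4.05 and 3.26 FPKM, highest in liver 1 and lowest in liver 4 as Des was. Lrat was named after its values were seen. In bulk tissue, fewer cells of a type and less RNA per cell cannot be told apart, and neither can the cell types that share a transcript.

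Among the 13 stellate markers expressed, 6 were highest in liver 2, 6 were lowest in liver 4 and 10 were higher in liver 2 than in liver 4, beside 22%, 18.1% and 39.8% of all expressed genes. Their summed level was 133, 144, 126 and 121 FPKM. Activated myofibroblast genes, 9 of 14 expressed, were highest in liver 2 for 6 of the 9 and lowest in liver 4 for 1 as deposited. Livers 3 and 4 were nearly tied for several of them, and 4 of the 9 were lowest in liver 4 with equal sums or with median-ratio scaling, a count added after seeing the data. The shares of all expressed genes lowest in liver 4 were then 33.0% and 21.8%. The myofibroblast list was led by Fn1 at 187 ± 10.1 FPKM, Col1a1 at 38.0 ± 7.23 and Col3a1 at 33.3 ± 5.67 (each SD, n = 4). Unlike most of the list, Fn1 was lowest in liver 2, as deposited and with equal sums. Its highest liver was liver 4 as deposited and liver 3 with equal sums.

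Contractile smooth muscle genes, 8 of 14 expressed, were highest in liver 2 for 2 of the 8 and lowest in liver 4 for 3. Cald1 averaged 72.3 ± 9.08 FPKM, Tpm1 37.4 ± 2.73 and Mylk 10.5 ± 1.48 (each SD, n = 4). Portal fibroblast markers, 7 of 11 expressed, were highest in liver 2 for 3 of the 7 and lowest in liver 4 for 5. They were higher in liver 2 than in liver 4 for 7 of 7, against 39.8% of all expressed genes. Their summed level was 68.1, 71.0, 76.4 and 55.6 FPKM, with Gsn at 27.3 ± 4.62, Dpt at 14.8 ± 2.54 and Entpd2 at 9.10 ± 0.737 (each SD, n = 4). None of the 11 was listed at 0 in all livers.

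Of 6 markers of the mesothelium, the cell layer on the liver surface, 2 were expressed, 1 of them highest in liver 2 and 1 lowest in liver 4. Counting also the 4 below 1 FPKM, which rest on few fragments and are not covered by the shares over expressed genes, 5 of the 6 were highest in liver 2 and 4 lowest in liver 4. Their summed level was 8.67, 13.0, 8.32 and 6.90 FPKM, and 0 of the 6 were listed at 0 in all livers. The most abundant were Krt19, which cholangiocytes also make, at 4.84 ± 0.263 FPKM, Gpm6a at 2.13 ± 0.919 and Upk3b at 0.704 ± 0.387 (each SD, n = 4). Msln and Upk1b, named after their values were seen, were also highest in liver 2, and Upk1b was listed at 0 in liver 4.

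The lists of other liver cell types differed among themselves. Sinusoidal endothelial markers, 10 of 10 expressed, summed to 70.1, 94.5, 79.3 and 86.3 FPKM, with 7 highest in liver 2 and 0 lowest in liver 4, beside 22% and 18.1% of all expressed genes. Macrophage markers, 6 of 7 expressed, summed to 153, 199, 153 and 208 FPKM. Of the 6, 2 were highest in liver 2 as deposited and 5 with equal sums, where the share of all expressed genes was 28.4%. Hepatocyte markers, 8 of 8 expressed, summed to 37050, 33114, 32613 and 43890 FPKM, highest in liver 4 as deposited. These sums rest mostly on the most abundant genes. Not every marker followed them, and 1 of the 8 was lowest in liver 4. Fabp1 was highest in liver 4 as deposited and in liver 1 with equal sums, whereas Apoa1 and Cyp2e1 stayed highest in liver 4. Cholangiocyte markers, 5 of 6 expressed, summed to 233, 205, 192 and 213 FPKM, mostly from Spp1 at 191 ± 18.4 FPKM (SD, n = 4). Their median deviations were 0.06, 0.07, -0.04 and -0.07 in livers 1 to 4, the same order of livers as the medians of the 10 genes, and 4 of the 5 were higher in liver 2 than in liver 4. Of the 5, 1 was lowest in liver 4 as deposited and 4 with equal sums, where the share of all expressed genes was 33.0%. The part that the makeup of the sampled tissue has in the differences of the 10 genes between livers was not tested.

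**Figure D5:**
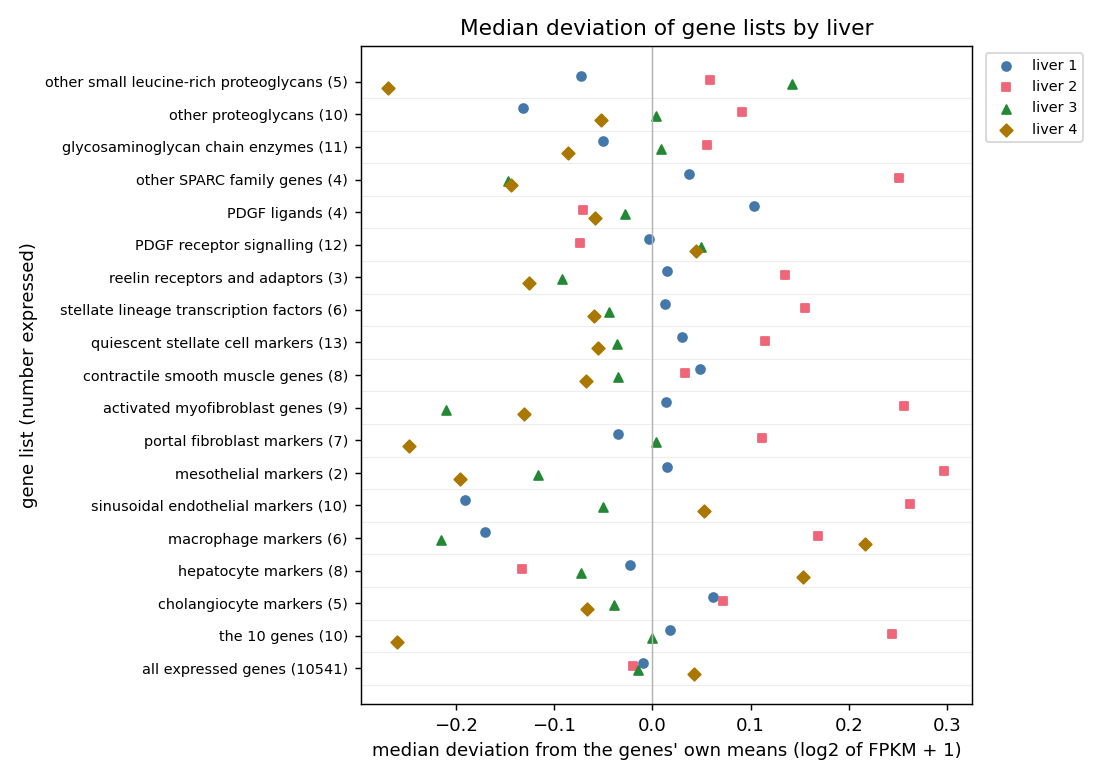
Median deviation from the genes' own means in each liver, on the log2(FPKM + 1) scale, for 17 gene lists, the 10 genes and all 10541 expressed genes, with the number of expressed genes in parentheses. The 10 genes have liver 2 at 0.24 and liver 4 at -0.26; several other lists, among them quiescent stellate, portal fibroblast and mesothelial markers (the last of 2 genes) and stellate lineage transcription factors, also have liver 2 on the right and liver 4 on the left, while hepatocyte and macrophage markers as deposited have liver 4 on the right.

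For the 8 genes whose SD was above the median of expressed genes, the 3 genes with the nearest pattern over the 4 livers were listed, by Euclidean distance between deviations on the log2 scale, among about 6537 genes averaging 5 FPKM or more. With 4 values per gene many genes lie close, and the lists are a description. Sparc was nearest to Olfml3, Dlc1 and Serpine2, at distances of 0.06 each. Pdgfrb was nearest to Gdf10 (0.04), Trp53bp2 (0.06) and Rcn3 (0.07), and Pdgfra to Dnph1, Bmyc and Timp3 (0.05 each).

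Lum, the most variable, had Rcn3 and Zfp36 among its 3 nearest, at 0.28 each. Dcn was nearest to Klk1b4 (0.07), Nxt2 (0.09) and Tmem128 (0.09). Hand2 was nearest to Adam11 (0.04), Insl3 (0.07) and Gm12942 (0.12). Des was nearest to Snrnp70 (0.04), Zgpat (0.05) and Mettl17 (0.06). Reln was nearest to Cmtm4 and Snx2 (0.01 each) and Dnajc2 (0.02).

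The 10 genes were also compared with each other by the same distance, with no minimum level, a step chosen after seeing the data. The receptors Pdgfra and Pdgfrb were each other's nearest, at 0.13, and so were Acta2 and Bgn, at 0.14. Sparc was nearest to Pdgfra, at 0.17. Hand2 and Lum were nearest to Pdgfrb, at 0.25 and 0.32, and Des to Bgn, at 0.29. Dcn was nearest to Sparc, at 0.37. The distance is small to any gene that hardly varies, and that of Reln to each of the other 9 was larger than the size of its own deviations, 0.29. Csf1r, the macrophage gene that lies 20504 bases from Pdgfrb, had 11.6, 16.1, 14.0 and 13.4 FPKM, highest in liver 2 as Pdgfrb was, but lowest in liver 1.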

How the data were processed

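Poly(A)-enriched RNA of 4 livers was sequenced, per the labels. The authors' deposited table gives values in a unit its header does not name, taken to be FPKM from their decimals, their sums and the tools named. The submitters' processing notes name FastQC 0.10.1, Trim Galore 0.6.3, cutadapt, STAR 2.7.6a and Cufflinks 2.2.1, and the build mm10. Strandedness and annotation are not given in the sources used here. Columns were matched to samples by the sample descriptions, and 1 was added to each deposited start. Summed FPKM was 516816 to 570681 per library. The table holds no counts; the depth, estimated from 3436 single-transcript genes of GENCODE annotation longer than 800 bases after subtracting 200 bases, was about 20.1, 19.3, 19.5 and 18.8 M fragments. Fragments per gene use the longest coding transcript and are approximate.

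Values were analysed as log2(FPKM + 1), which understates differences of low genes, and expressed genes are those averaging 1 FPKM or more. With a single group there was no comparison between groups and no p-value; Dixon's ratio was tested on simulated data. The numbered livers were taken as 4 animals. The 10 genes and the 17 lists, with 180 symbols, were chosen with earlier results of these data known. Named genes are the 10, the 3 of highest mean in each list, those listed at 0 in all livers, and the 3 nearest in pattern; 1 of the nearest genes is not reported here; other names are said to be chosen after their values were seen. Alternatives were other scalings (equal sums; median-ratio), pseudocounts 0.1 and 5, minimum means, and leaving out each liver. Python 3.11.15, numpy 2.4.6 and pandas 2.3.3 were used.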

Additional observations from a re-analysis of the deposited data

Results flagged for a closer look

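The results examined for a liver standing apart from the other 3 were 114. They were the 10 genes, the 5 ratios, the summed level of each list and the genes named from the lists or as nearest in pattern. Genes named after their values were seen were also included, as were Gpc1, Fmod and Sox9. Of these results, 7 passed Dixon's 95% critical value. Chance alone passes about 1 in 20 such sets of 4. The 7 cannot be set against that rate, because Gpc1, Fmod and Sox9 were added for passing. None of the 7 was one of the 10 genes. Sdc4 had 136, 138, 111 and 138 FPKM in livers 1 to 4, with liver 3 low and a ratio of 0.9098. Apoa1 had 11922, 12320, 12295 and 15343 FPKM, with liver 4 high and a ratio of 0.8698. Prelp had 26.1, 25.6, 26.8 and 20.2 FPKM, with liver 4 low and a ratio of 0.837. Dnajc2, near Reln in pattern, had 9.34, 9.41, 7.29 and 9.75 FPKM, with liver 3 low and a ratio of 0.8498. Gpc1 (a ratio of 0.9037, liver 4 high), Fmod (0.8917, liver 4 low) and Sox9 (0.8413, liver 4 low) are expressed list genes outside the naming rule, added because their ratios passed.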

How the results depend on the processing

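The 10 genes kept 8 highest in liver 2 and 8 lowest in liver 4 with equal-sum scaling and with median-ratio scaling. Leaving out another liver cannot lower either count, so it is no check of them. Over these scalings and with another liver left out, the share of expressed genes highest in liver 2 ran from 22.0% to 34.2%. The share lowest in liver 4 ran from 18.1% to 33.0%. The number of the 10 genes with a single liver apart was 0 as deposited and 1 with either scaling, Reln in both cases. The median deviation of all expressed genes in liver 4 was 0.04 as deposited and -0.04 with equal sums. A pseudocount of 5 moved the median deviation of the 10 genes to 0.14 in liver 2 and -0.15 in liver 4. The mean ratios of pairs of genes moved by less than 1 SD when any liver was left out, Dcn to Lum between 5.93 and 7.63. Subtracting 100 or 300 bases gave depths of 18.2 to 21.1 M fragments. The depth limits Acta2 most. No paired analysis was possible because there is a single group.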
